A study of Mus musculus with 6 samples.

Results

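The IL-6 family of cytokines and its feedback inhibitors was followed in cultured mouse heart cells with and without activation of a disease variant of RIT1, a RAS-related GTPase. The group holds 10 genes picked by name and function, not by their values, of 54532 genes in the file. It comprises the ligands Il6, Lif, Il11 and Ctf1, the receptor subunits Il6st, Osmr and Lifr, and the suppressors of cytokine signaling Socs1, Socs2 and Socs3. All 10 were found in every sample, and all 10 passed the filter on low values.

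Heart muscle cells (primary cardiomyocytes) were isolated from neonatal mice and kept in serum-containing medium. All cultures came from mice whose Rit1 locus was engineered so that Cre recombinase replaces the normal transcript by one that encodes the M90I variant. On day 3 after isolation they were infected with adenovirus that expressed GFP alone (AdGFP, labelled Rit1 +/+, n = 3) or GFP with Cre (AdCre, labelled Rit1 M90I/+, n = 3), and poly-A RNA was sequenced. The labels name the samples as biological replicates without saying whether they came from separate litters, so p-values measure the spread between these samples. Both groups thus share the engineered locus, the virus and GFP, and differ in Cre and in the variant together. Cells without the engineered allele were not given AdCre, so the effect of the variant and that of the recombinase cannot be told apart.

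Cytokines of the IL-6 family signal through complexes that hold gp130, the shared receptor subunit encoded by Il6st. IL-6 and IL-11 first bind their own non-signaling receptors, LIF and cardiotrophin-1 use gp130 together with the LIF receptor, and oncostatin M uses gp130 with its own receptor or, in part, the LIF receptor. The complexes activate JAK kinases and the transcription factor STAT3, which induces Socs3, and SOCS3 in turn binds gp130 and shuts the signal off. In heart muscle this pathway is known for hypertrophic growth and for protection of cardiomyocytes under stress, and LIF and cardiotrophin-1 are classical hypertrophic agents in neonatal cardiomyocyte culture.

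Promoter sequence is shown for the 4 members at which a motif of interest lay upstream of a start site. AP-1, the JUN and FOS dimer at the end of MAPK signaling, binds TGANTCA, and STAT dimers bind TTCNNNGAA. Both motifs were searched on both strands from 250 bases before to 50 bases after each RefSeq start site (GRCm38.p6), and they share no word. Of the 10 members, 9 had a promoter in the table, with 11 windows in all, and Socs2 had none. The 250 upstream bases are given 5′ to 3′ along the gene, with the motif in capitals. The Il6 window is chr5:30012864-30013113 (plus strand), that of Lif chr11:4257318-4257567 (plus strand), that of the downstream Il11 start chr7:4778142-4778391 (minus strand) and that of Socs3 chr11:117969367-117969616 (minus strand).
Il6: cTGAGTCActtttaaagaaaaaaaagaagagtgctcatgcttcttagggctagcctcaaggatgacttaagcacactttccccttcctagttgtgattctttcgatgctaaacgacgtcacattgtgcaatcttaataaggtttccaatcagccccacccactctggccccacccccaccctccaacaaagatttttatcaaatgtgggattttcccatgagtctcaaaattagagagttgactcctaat
Lif: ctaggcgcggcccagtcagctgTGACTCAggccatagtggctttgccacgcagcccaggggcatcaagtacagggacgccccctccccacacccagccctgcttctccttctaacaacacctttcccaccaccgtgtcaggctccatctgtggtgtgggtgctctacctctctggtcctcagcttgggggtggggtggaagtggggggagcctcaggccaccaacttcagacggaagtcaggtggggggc
Il11: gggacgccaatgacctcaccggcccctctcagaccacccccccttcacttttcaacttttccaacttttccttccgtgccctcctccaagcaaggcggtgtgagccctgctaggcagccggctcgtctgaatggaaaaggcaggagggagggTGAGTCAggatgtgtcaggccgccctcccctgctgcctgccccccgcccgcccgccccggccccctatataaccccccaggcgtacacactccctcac
Socs3: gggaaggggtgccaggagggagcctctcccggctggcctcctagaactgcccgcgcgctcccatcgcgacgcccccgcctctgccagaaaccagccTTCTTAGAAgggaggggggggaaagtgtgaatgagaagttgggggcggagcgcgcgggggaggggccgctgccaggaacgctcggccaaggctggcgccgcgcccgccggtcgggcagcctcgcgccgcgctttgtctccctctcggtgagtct

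The AP-1 motif began 249 bases before the start in Il6, 228 before it in Lif and 98 before it in Il11, and in Osmr another match began 4 bases after the start. Thus 4 of 11 member windows held it, against 7.81% of 32851 promoters in the table. The STAT motif was present in 1 of 11 member windows, that of Socs3, 154 bases before the start, against 8.3% of all promoters. In GENCODE M21 the Il6 and Lif windows lie upstream of the gene, apart from the last bases of the Lif window in its first exon. The Il11 window lies in an intron of the transcripts that begin further upstream, and the Socs3 window lies upstream of the coding transcript and covers an exon of a non-coding one. A match is a description of the letters and not a bound site, and the windows of Ctf1, Il6st, Lifr and Socs1 held neither motif.

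Levels are given as FPKM, fragments scaled to exon length and sequencing depth, which allows comparison between genes. Il6st was the most abundant member in both groups, at a mean of 46.2 ± 11.1 FPKM (SD, n = 3) in AdGFP and of 39.4 ± 11.9 FPKM (SD, n = 3) in AdCre. In AdGFP it was followed by Osmr, Socs3, Lif, Socs2, Lifr, Ctf1, Il6, Socs1 and Il11, the last at 0.361 ± 0.350 FPKM. Among neighbors in that order, only Il6st and Osmr, and Socs2 and Lifr, had ranges that did not overlap. In AdCre the order of means was Il6st, Osmr, Socs3, Lif, Lifr, Socs2, Il6, Socs1, Ctf1 and Il11. There the neighboring pairs Il6st and Osmr, Lif and Lifr, and Socs2 and Il6 had separate ranges, and Lif stood above Lifr and Socs2 in every sample.

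**Figure D1:**
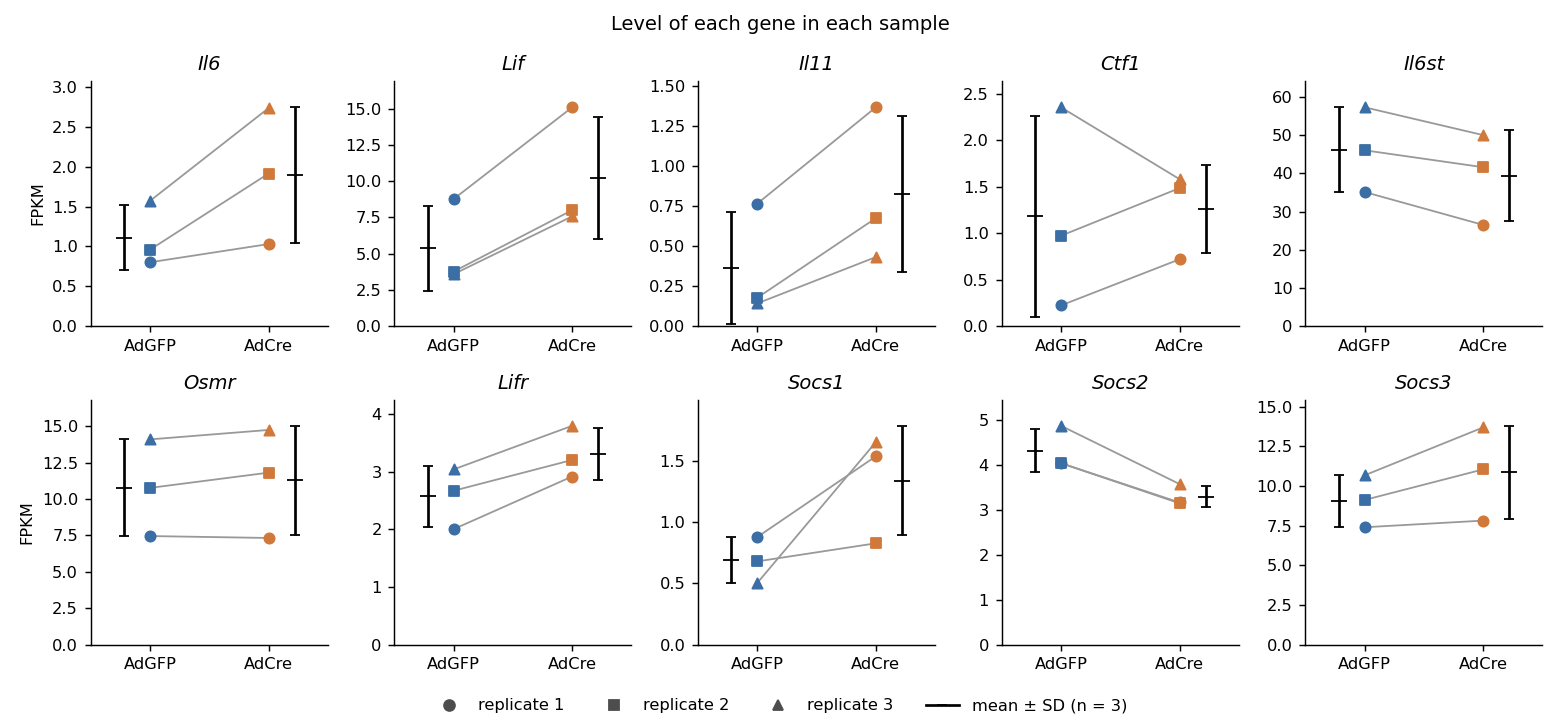
FPKM of each of the 10 genes in the 3 AdGFP (blue) and 3 AdCre (orange) samples on linear axes that start at 0, with lines between samples of the same replicate number and bars for mean ± SD. Lif, Il6, Il11, Lifr, Socs1 and Socs3 are higher in AdCre along each line, and Il6st and Socs2 are lower. The AdGFP and AdCre points of Socs2 alone do not overlap.

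The comparison of AdCre with AdGFP asks which transcripts differ once Cre has switched on Rit1 M90I, with no separation of Cre from the variant. Of the 10 members, 8 had a higher and 2 a lower estimate in AdCre, with a median log2 difference of 0.41 against -0.0022 over all 13794 genes tested. None passed in limma without pairing at an adjusted p-value under 0.05 (background 0.00725% of genes tested). At an unadjusted p under 0.05 there were 3, Lif and Socs1 with higher and Socs2 with lower values (background 10.2%). With the replicate number as a block, 1 member passed, Lif, which rose (background 6.15%), and in 1 member, Socs2, no AdCre value fell within the AdGFP range (background 15.4%). A share of 1 in 10 is close to each of the latter backgrounds at this list size.

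Lif (ENSMUSG00000034394, chromosome 11, 4257557 to 4272514, GRCm38) encodes leukemia inhibitory factor, which signals through gp130 and the LIF receptor. It measured 8.77, 3.76 and 3.58 FPKM in AdGFP replicates 1 to 3, and 15.1, 8.00 and 7.58 FPKM in AdCre replicates 1 to 3. Replicate 1 was the highest of both groups, and AdGFP replicate 1 lay above AdCre replicates 2 and 3, so the groups overlapped. The means were 5.37 ± 2.95 and 10.2 ± 4.23 FPKM, a ratio of 1.90. On the log2(FPKM + 0.1) scale the difference was 0.97 ± 0.41 (SE, limma adjusted p 0.491). Between samples of the same number it was 0.78, 1.07 and 1.06, and with the block Lif passed, with a 95% interval from 0.72 to 1.22 (limma adjusted p 0.0145). The blocked call was lost without a filter on low values (adjusted p 0.0626), without the intensity trend in the variance (0.0582), and when both samples of pair 2 (0.0564) or of pair 3 (0.0827) were left out. These values rested on 384 to 943 reads in AdGFP and 899 to 2105 in AdCre.

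Il6 (ENSMUSG00000025746, chromosome 5, 30013114 to 30019981) encodes interleukin-6, the founding member of the family. Its level was 0.800, 0.958 and 1.57 FPKM in AdGFP and 1.03, 1.91 and 2.74 FPKM in AdCre. Every AdCre sample lay above the AdGFP sample of its number, while AdCre replicate 1 was below AdGFP replicate 3. Its log2 difference of AdCre from AdGFP was 0.67 ± 0.39 (SE, limma adjusted p 0.641, and 0.0977 with the block), with 0.33, 0.93 and 0.76 within pairs.

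Il11 (ENSMUSG00000004371, chromosome 7, 4772373 to 4782859, minus strand) encodes interleukin-11, a cytokine made by fibroblasts and linked to cardiac fibrosis. It was read at 0.764, 0.176 and 0.141 FPKM in AdGFP and 1.37, 0.674 and 0.431 FPKM in AdCre. Only 7 to 38 reads in AdGFP and 24 to 88 in AdCre stood behind these values, and the AdGFP mean was under the filter of 0.5 FPKM, so Il11 was tested through its AdCre level. Replicate 1 was again the highest in each group, as for Lif. The fitted log2 difference for Il11 was 1.13 ± 0.63 (SE, limma adjusted p 0.624, and 0.109 with the block), and 0.76, 1.49 and 1.14 within pairs.

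Ctf1 (ENSMUSG00000042340, chromosome 7, 127712736 to 127718192) encodes cardiotrophin-1, a ligand of gp130 and the LIF receptor named for its effect on heart muscle. It was spread widely among AdGFP samples, at 0.222, 0.973 and 2.36 FPKM, against 0.719, 1.49 and 1.58 FPKM in AdCre. The within-pair differences of 1.35, 0.56 and -0.55 did not share a sign. The fitted difference was 0.46 ± 0.72 (SE, limma adjusted p 0.902) and turned to -0.32 when AdGFP replicate 1 was left out. Of its exon bases 4.77% overlap Ctf2 on the other strand, and the use of strand in counting is not given in the sources used here.

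Il6st (ENSMUSG00000021756, chromosome 13, 112464070 to 112510086), the gene of gp130, measured 35.1, 46.1 and 57.3 FPKM in AdGFP and 26.5, 41.6 and 50.1 FPKM in AdCre. It was lower in AdCre within each pair, by amounts smaller than the spread across replicate numbers, and the groups overlapped. The log2 difference was -0.25 ± 0.28 (SE, limma adjusted p 0.840). Within pairs it was -0.41, -0.15 and -0.20, and the block did not bring it past the threshold (adjusted p 0.140, 95% interval from -0.45 to -0.05). Without AdCre replicate 1 the estimate was 0.012.

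Osmr (ENSMUSG00000022146, chromosome 15, 6813577 to 6874969, minus strand) encodes the oncostatin M receptor and is the neighbor of Lifr, 215.6 kb away with no protein-coding gene between them. It stood at 7.45, 10.8 and 14.1 FPKM in AdGFP and 7.32, 11.8 and 14.7 FPKM in AdCre. The groups covered nearly the same range. The log2 difference was 0.06 (limma adjusted p 0.980), with a blocked 95% interval from -0.14 to 0.26, and its sign turned when AdGFP replicate 1 (-0.18), AdCre replicate 2 (-0.0035) or AdCre replicate 3 (-0.16) was left out.

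Lifr (ENSMUSG00000054263, chromosome 15, 7090614 to 7197489), the receptor subunit for LIF and cardiotrophin-1, measured 2.00, 2.67 and 3.04 FPKM in AdGFP and 2.91, 3.20 and 3.79 FPKM in AdCre. Each AdCre sample was above its pair, and AdCre replicate 1 was below AdGFP replicate 3. For Lifr the log2 difference was 0.36 ± 0.20 (SE, limma adjusted p 0.612, and 0.133 with the block), and 0.52, 0.26 and 0.31 within pairs.

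Ratios between the receptor transcripts of one sample do not depend on how samples were scaled to each other. All 3 ratios among Il6st, Osmr and Lifr were computed, after the levels had been seen. Il6st over Lifr was 17.6, 17.3 and 18.9 in AdGFP and 9.09, 13.0 and 13.2 in AdCre. Il6st over Osmr was 4.71, 4.28 and 4.07 in AdGFP and 3.62, 3.53 and 3.39 in AdCre. Both ratios were lower in each AdCre sample than in any AdGFP sample, each with an exact two-sided permutation p of 0.1, which is the smallest that 3 samples against 3 allow. Osmr over Lifr overlapped between the groups, at 3.72 to 4.64 in AdGFP and 2.51 to 3.89 in AdCre (exact permutation p 0.2).

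Socs1 (ENSMUSG00000038037, chromosome 16, 10782240 to 10785536, minus strand) encodes an inhibitor of JAK kinases that is best known for limiting interferon signaling. Its level was 0.877, 0.678 and 0.502 FPKM in AdGFP and 1.54, 0.826 and 1.65 FPKM in AdCre. AdCre replicates 1 and 3 stood above all AdGFP samples, and AdCre replicate 2 did not. For Socs1 the log2 difference was 0.84 ± 0.34 (SE, limma adjusted p 0.475, and 0.154 with the block). Within pairs it ran from 0.25 in pair 2 to 1.54 in pair 3.

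Socs2 (ENSMUSG00000020027, chromosome 10, 95385362 to 95417180, minus strand) encodes a suppressor best known for restraining growth hormone signaling through STAT5. It measured 4.04, 4.05 and 4.88 FPKM in AdGFP and 3.17, 3.15 and 3.58 FPKM in AdCre. All AdCre samples lay below all AdGFP samples, a ratio of means of 0.763 (exact two-sided permutation p 0.1). The log2 difference was -0.38 ± 0.14 (SE, limma adjusted p 0.429, and 0.0849 with the block), and the within-pair values of -0.34, -0.35 and -0.44 were close to each other. Other genes hold 4.53% of its 50-base transcript words, the largest share among the members.

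Socs3 (ENSMUSG00000053113, chromosome 11, 117966079 to 117970047, minus strand), the STAT3-induced inhibitor of gp130, stood at 7.39, 9.11 and 10.7 FPKM in AdGFP and 7.81, 11.0 and 13.7 FPKM in AdCre. The AdCre samples covered a wider range that began inside that of AdGFP. On the log2 scale Socs3 differed by 0.24 ± 0.23 (SE, limma adjusted p 0.816, and 0.187 with the block), and 0.08, 0.27 and 0.36 within pairs. In the fit without the block the member with the smallest unadjusted p was Socs2 (with the block it was Lif), and the genes whose centered log2 profile over the 6 samples lay nearest to it were Insig1, Rnf170 and Tmcc1, with root mean square differences of 0.050, 0.052 and 0.053.

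**Figure D2:**
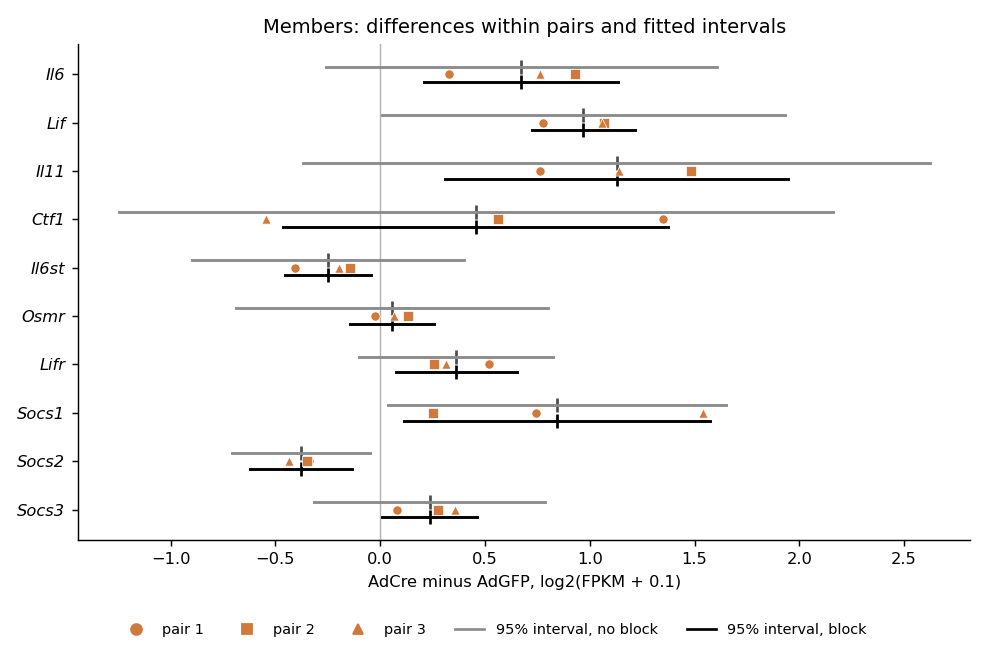
AdCre minus AdGFP on the log2(FPKM + 0.1) scale for each member, with the difference in each pair (symbols) and the fitted 95% intervals without (gray) and with (black) the replicate block. For Lif the pair values of 0.78, 1.07 and 1.06 lie within the narrow black interval, and the symbols of Ctf1 lie on both sides of 0.

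Among the other ligands, Clcf1 encodes cardiotrophin-like cytokine, which signals through gp130 and the LIF receptor. It was 1.70, 1.49 and 1.99 FPKM in AdGFP and 2.92, 2.12 and 3.34 FPKM in AdCre, and the groups did not overlap (background 15.4% of genes tested). The log2 difference was 0.65, and Clcf1 rose with the block (limma adjusted p 0.0488) but did not pass without it (0.380). The call was lost when pair 1 (0.108), pair 2 (0.125) or pair 3 (0.197) was left out, with a pseudocount of 1 (0.0529), without the filter (0.145) and without the trend (0.0803). Of the exon bases of Clcf1 8.17% overlap another gene on the same strand. Il31 was listed at 0 in all samples, and Osm, the ligand of Osmr, was between 0 and 0.381 FPKM.

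Of 5 other receptor genes 4 were tested and 0 passed with or without the block. Il6ra, which encodes the IL-6 receptor, measured 0.496, 0.470 and 0.521 FPKM in AdGFP and 0.661, 0.668 and 0.798 FPKM in AdCre. Its AdGFP mean of 0.496 FPKM was under the filter, so Il6ra too was tested through its AdCre level. Cntfr, the receptor for ciliary neurotrophic factor, measured 1.28, 1.43 and 1.30 FPKM in AdGFP and 2.42, 1.66 and 1.66 FPKM in AdCre. In both, all AdCre samples were above all AdGFP samples, while 15.4% of all genes tested had separate groups in either direction. Their log2 differences were 0.44 for Il6ra and 0.47 for Cntfr (limma adjusted p 0.680 and 0.516, and 0.372 and 0.198 with the block). That of Cntfr was 0.29 without AdCre replicate 1. Il11ra1, the IL-11 receptor, had means of 12.8 ± 2.63 (AdGFP) and 12.3 ± 1.40 FPKM (AdCre), a log2 difference of -0.05 whose sign turned on rescaling to TPM (0.04).

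Among the 7 kinases and STATs 0 passed with or without the block. Stat3, the main transcription factor of the pathway, averaged 31.7 ± 2.32 FPKM over AdGFP and 30.4 ± 0.923 FPKM over AdCre samples. Its log2 difference was -0.06, with a sign that turned on rescaling to TPM (0.03). Jak1, the kinase most closely tied to gp130, had a difference of 0.15 (limma adjusted p 0.782), which was 0.06 without AdGFP replicate 1. Jak2 was the gene of this list with the smallest p, at a difference of 0.22 (adjusted p 0.594). It was higher in all AdCre than in all AdGFP samples (background of separate groups 15.4% of genes tested).

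Among the 10 other negative regulators 3 had higher and 7 lower estimates. With the block 1 passed, Cish, which fell (background 6.15% of genes tested). Cish encodes a suppressor of the SOCS family that STAT5 induces. It was 10.0, 9.36 and 7.50 FPKM in AdGFP and 7.18, 7.29 and 5.56 FPKM in AdCre, a log2 difference of -0.42 (limma adjusted p 0.471, and 0.0477 with the block). The call was lost after rescaling to TPM (0.0848), without the filter (0.114) or the trend (0.103), and without pair 1 (0.106), pair 2 (0.156) or pair 3 (0.176). Like Socs2, Cish had groups that did not overlap (background 15.4% of genes tested). So did Socs4 and Socs6, with differences of -0.17 and -0.31, which were picked after their values were seen. Of the exon bases of Cish 11.5% overlap other genes on the opposite strand. In the promoter window of Cish the STAT motif began 1 and 12 bases after the start.

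A list of 19 genes that STAT3 is known to induce, of which 15 were tested, held 8 higher and 7 lower estimates, with a median of 0.05. None passed without the block, and with it 1 rose and 2 fell. Over all genes tested 6.15% passed with the block, and 15.4% had groups that did not overlap. Steap4, a metalloreductase that acts in inflamed tissue, fell from 3.55, 5.22 and 8.49 FPKM in AdGFP to 0.455, 0.945 and 2.47 FPKM in AdCre, groups that did not overlap. The log2 difference was -2.27 (limma adjusted p 0.292, and 0.0119 with the block), and the call was lost without pair 3 (0.0674). Hp, which encodes the hemoglobin-binding acute-phase protein haptoglobin, was 0.630, 1.37 and 6.01 FPKM in AdGFP and 0.117, 0.265 and 2.61 FPKM in AdCre, a difference of -1.65 that passed with the block (adjusted p 0.0271). Only 25, 56 and 238 reads in AdGFP and 6, 11 and 116 in AdCre stood behind the Hp values. Icam1, an adhesion molecule for leukocytes, was 3.54, 3.64 and 7.06 FPKM in AdGFP and 6.05, 6.38 and 11.7 FPKM in AdCre. Its difference of 0.76 was nearly equal in the 3 pairs, at 0.76, 0.79 and 0.72 (adjusted p 0.0169 with the block). The calls of Hp and Icam1 were lost without pair 2 (0.0859 and 0.0702) or pair 3 (0.141 and 0.0966), and those of all 3 genes without the filter (0.0615, 0.0956 and 0.0657 for Steap4, Hp and Icam1) or the trend (0.0582, 0.0628 and 0.0592). Without AdGFP replicate 3 the difference of Hp was -0.79, without AdCre replicate 1 it was -0.91 and without AdCre replicate 3 it was -2.74. That of Icam1 was 0.46 without AdCre replicate 3 and 1.08 without AdGFP replicate 3. Mt1, a metallothionein picked after its values were seen, also had separate groups, with means of 286 ± 37.4 (AdGFP) and 142 ± 55.0 FPKM (AdCre) (limma adjusted p 0.292, and 0.0605 with the block). The promoter windows of Steap4 and Icam1 hold a STAT motif 116 and 42 bases before the start.

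**Figure D3:**
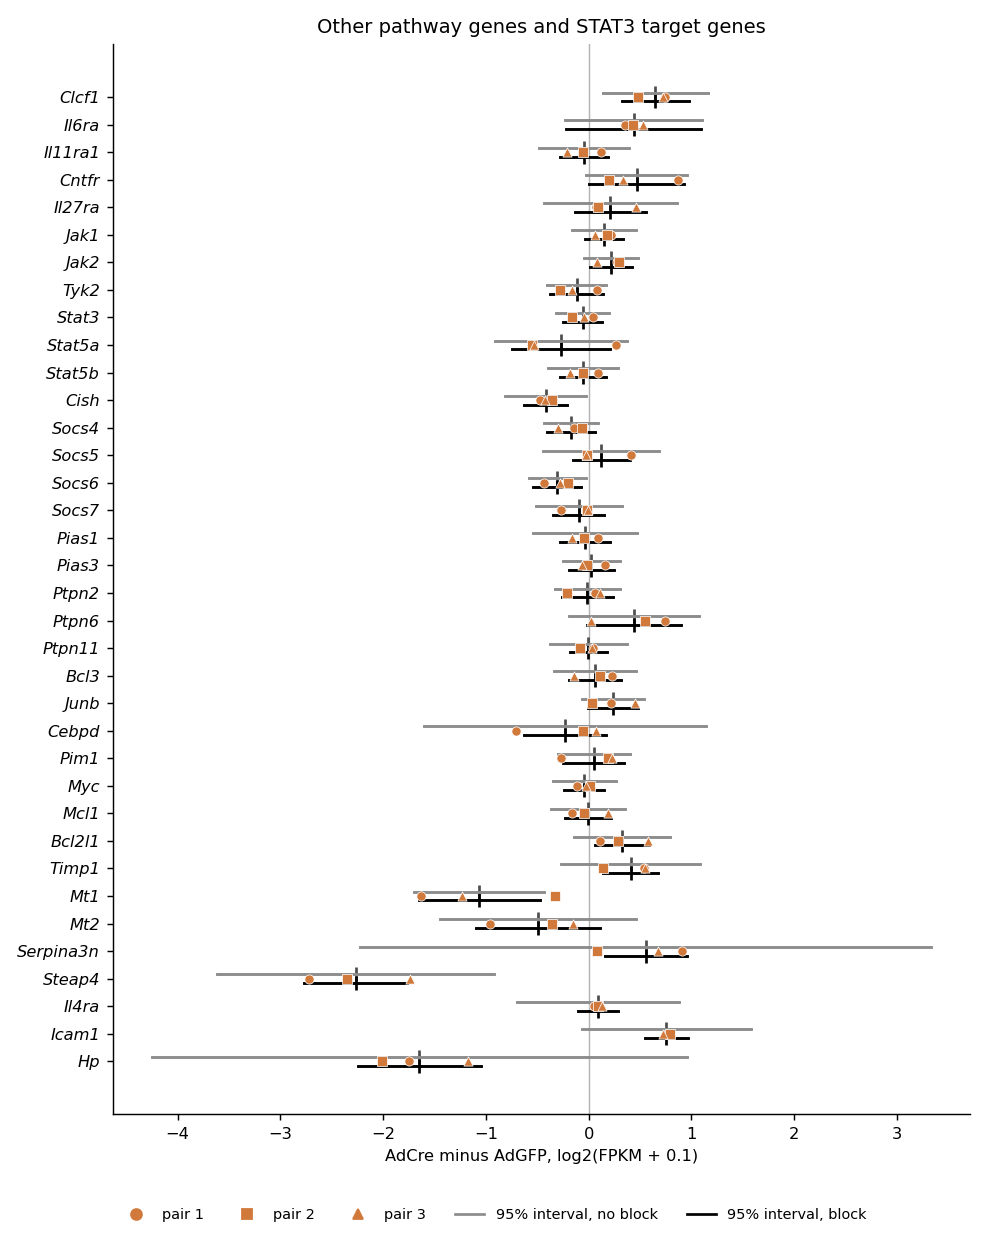
AdCre minus AdGFP on the log2(FPKM + 0.1) scale for tested genes of the pathway and STAT3 target genes, with pair differences as symbols and 95% intervals without (gray) and with (black) the block. Steap4 at -2.27 and Hp at -1.65 lie far to the left, Icam1 (0.76) and Clcf1 (0.65) lie to the right, and Stat3 lies near 0.

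Lists of cell type markers and of interferon response genes were read beside the members. In the limma fit without the block 0 genes of any of these lists were called, while 5 interferon response genes and 5 cardiomyocyte, 1 endothelial and 1 mesothelial marker had an unadjusted p under 0.05, and the blocked counts given here stand against 6.15% of all genes tested. Read depth was 25.2 to 26.4 M recovered reads in AdGFP and 25.9 to 32.3 M in AdCre, and Rit1 itself was at 8.55 ± 0.774 and 9.19 ± 0.351 FPKM, a total that does not separate the M90I from the normal allele. All 8 cardiomyocyte markers had lower estimates in AdCre, with a summed level of 1294 to 1812 FPKM against 2032 to 2749 FPKM in AdGFP, and 5 of them fell with the block. The 8 fibroblast markers summed to 2589 to 4644 FPKM in AdGFP and 2272 to 3324 FPKM in AdCre, so the cultures held fibroblast RNA beside that of cardiomyocytes, and 3 fell with the block. Of 8 endothelial markers 7 were higher, at sums of 39.0 to 69.6 and 52.1 to 92.3 FPKM, and the 7 macrophage markers tested of 8 all were, at 49.3 to 268 and 87.8 to 337 FPKM, with 2 of each list called higher with the block. Mural markers summed to 122 to 131 and 117 to 141 FPKM, and mesothelial markers to 139 to 271 and 198 to 274 FPKM. Of the 6 mesothelial markers 4 had lower estimates, and 1, Krt8, was called higher with the block, with means of 48.4 ± 26.4 (AdGFP) and 123 ± 30.7 FPKM (AdCre). No marker was at 0 in all samples. All 12 interferon response genes had higher estimates, with a median log2 difference of 1.50 and 10 called with the block, and their sum ran from 38.4 to 80.6 FPKM in AdGFP and from 68.0 to 320 FPKM in AdCre. In these bulk samples fewer cells of a type and less RNA per cell cannot be told apart, and the part of these lists in the values of Lif, Socs1 or any other member was not tested.

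**Figure D4:**
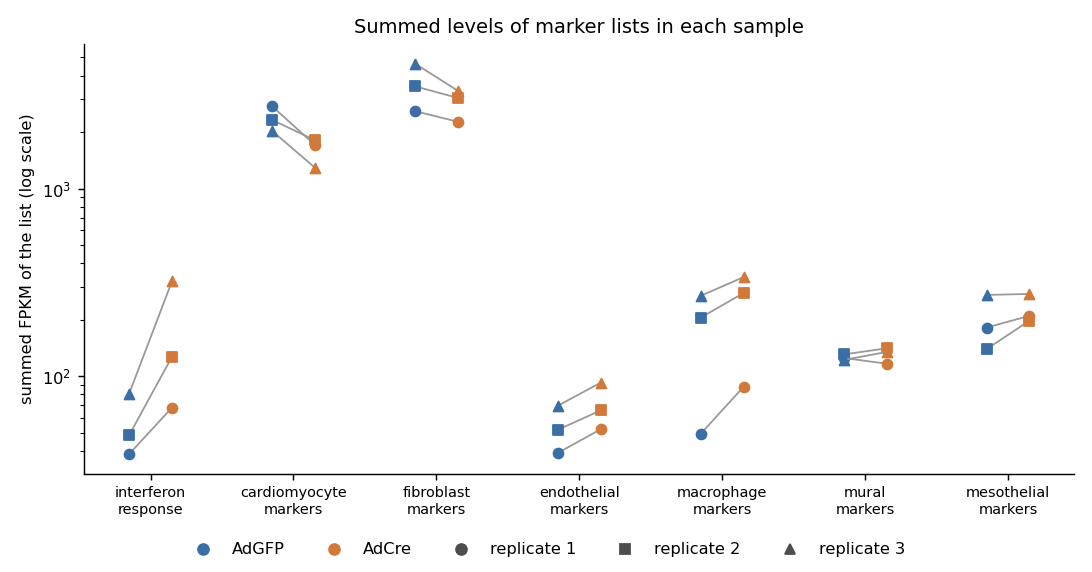
Summed FPKM (log axis) of the interferon response list and of 6 marker lists in each AdGFP (blue) and AdCre (orange) sample, with lines between samples of the same number. Cardiomyocyte sums are lower in every AdCre sample (1294 to 1812) than in any AdGFP sample (2032 to 2749), and interferon sums are higher along each line.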

How the data were processed

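Total RNA was poly-T selected and copied from random hexamers. The submitters' processing notes name fastp, STAR 2.5, HTSeq 0.6.1 and mm10; annotation and strand are not given in the sources used here. The authors deposited FPKM for each of 6 samples, with no pooling. FPKM times GENCODE M21 exon length gave whole reads (within 0.01) for 96.77% of genes above 0 and for 99.94% after a length search, and the denominators of the deposited FPKM were 0.934 to 1.03 times the recovered sums.

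Groups followed the labels. Genes averaging 0.5 FPKM or more over all samples (13794) were tested as log2(FPKM + 0.1), a scale that understates the differences of low genes. Each was fitted for group in limma 3.58.1 (R 4.3.3) with an intensity trend and Benjamini-Hochberg adjustment, and called at an adjusted p under 0.05. The fit without the block was also run on simulated data. Intervals cover the spread between samples, and counting error adds to it where reads are few.

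Same-numbered samples deviated together from their group means across genes (correlations 0.568, 0.268 and 0.506, against -0.497 to 0.036 for other combinations). The replicate number was therefore taken as a pairing, from the values alone, since the labels do not say what it marks.

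The members were set by name and function, and the other gene lists were written with earlier results of these data known. All 10 members are named. From other lists the genes called with or without the block are named, at most 5, or else the 2 with the smallest p, with the receptors of member ligands, Stat3, Jak1 and Rit1, and the 3 genes nearest in profile to the member with the smallest p. Some genes of these lists are counted but not reported here. Promoters are from RefSeq (GRCm38.p6). Alternatives were pseudocounts, filters, scalings, the trend, the block and left-out samples. Added after seeing the data were the authors' scaling undone and the blocked fit combined with 8 further choices. Python 3.11.15, numpy 2.4.6, pandas 2.3.3 and matplotlib 3.10.9 were used.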

Additional observations from a re-analysis of the deposited data

How the results depend on the processing

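Without the block, 1 gene of 13794 was called, against 3 with a pseudocount of 1, 4 without the intensity trend, 0 without a filter on low values, 0 with voom on the recovered reads and 0 to 2 when each sample was left out. With the replicate block, 848 genes were called, of which 1 was a member, 3 were other pathway genes and 3 were STAT3 targets. Under the block, in the same order, rescaling to TPM gave 875, 1, 3 and 3, voom on recovered reads 1741, 3, 4 and 7, a pseudocount of 1 gave 784, 1, 2 and 3, leaving out pair 1 gave 772, 1, 1 and 3, and leaving out pair 2 gave 149, 0, 1 and 2. Without the filter the blocked count of genes was 17, without the trend 0 and without pair 3 it was 1, with 0 from any of the 3 lists. The members called with voom were Il6, Lif and Lifr. The share of blocked calls with higher values in AdCre was 42.9%, 61.5% after rescaling to TPM and 57.8% with voom, while no scaling tried moved the median of all genes by more than 0.089. The causes of these shifts were not tested.

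Leaving out 1 sample moved the log2 difference of Lif between 0.65 (without AdCre replicate 1) and 1.38 (without AdGFP replicate 1), Il6 between 0.37 and 1.03, Il11 between 0.73 and 1.71, Ctf1 between -0.32 and 1.14, Il6st between -0.45 and 0.012, Osmr between -0.18 and 0.34, Lifr between 0.20 and 0.49, Socs1 between 0.67 and 1.13, Socs2 between -0.44 and -0.29 and Socs3 between 0.05 and 0.45. A pseudocount of 1 gave smaller differences for genes of low level, with 0.43 for Il6, 0.42 for Il11, 0.15 for Ctf1, 0.46 for Socs1, 0.19 for Il6ra, 0.31 for Cntfr and -0.80 for Hp. Rescaling to TPM gave -0.16 for Il6st, 0.15 for Osmr and 0.24 for Jak1, voom gave 0.12 for Osmr (and 0.25 for Ctf1 with the block), and the authors' scaling undone gave 0.12 for Osmr. The near-zero estimate of Il11ra1 turned sign on rescaling to TPM (0.042, with or without the block), with voom (0.014, and 0.011 with the block), with the authors' scaling undone (0.016), in the leave-one-out fits (-0.23 to 0.063) and with the block without pair 3 (0.035). That of Stat3 turned on rescaling to TPM (0.031 both ways), with voom (0.0052 both ways) and with the scaling undone (0.0047). Among the other genes for which the alternatives were run (the members, Clcf1, Cntfr, Il6ra, Jak1, Jak2, Cish, Steap4, Icam1 and Hp), Ctf1, Il6st and Osmr changed direction, as given above, and the rest did not. Among the members, depth limits Il11, Socs1, Il6 and Ctf1 most, with fewer than 200 reads in every sample.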
